A study of Homo sapiens with 4 samples.

Results

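The genes described here encode enzymes and related factors that write or erase marks on histones: the lysine demethylases (symbols KDM), the histone deacetylases (HDAC) and sirtuins (SIRT), the SET domain proteins SETD and SMYD, and the PRDM family. All genes with an annotated symbol of these 6 families were taken, without KDM6B and SMYD1, which gave 64 of the 20039 named genes on the array. The cells were RUES2, a widely used line of human embryonic stem cells, taken on day 5 of a protocol that directs them to the heart lineage, when cardiovascular progenitors appear. Undifferentiated cells had received a lentivirus carrying a short hairpin RNA (shRNA) and were selected with puromycin, so every sample, control or not, carries a vector and has passed selection. The control group held 2 arrays with a control shRNA (controls 1 and 2), and the TMEM88 group held 1 array with hairpin 691 and 1 with hairpin 94. Both hairpins are directed at TMEM88, which encodes a membrane protein known to dampen Wnt signalling. The spread of the TMEM88 group therefore includes any difference between the hairpins. Separate cultures are not stated in the labels, so p-values here measure only how these samples vary, which may be technical.

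Histone-modifying enzymes set how tightly DNA is packed and which genes can be read. SET domain proteins, which include the SETD and SMYD groups, transfer methyl groups to lysines, and the KDM proteins remove them, either with a flavin cofactor (KDM1A) or through a JmjC domain that uses iron and oxoglutarate. Zinc-dependent HDACs and NAD-dependent sirtuins remove acetyl groups from histones and from many other proteins. PRDM proteins pair a domain related to SET with zinc fingers, and several of them act mainly as DNA-bound transcription factors. During differentiation of pluripotent cells the removal of repressive methylation and the resetting of acetylation accompany the opening of lineage genes. In mouse embryonic stem cells the demethylase Utx, the homologue of KDM6A, is needed for the cardiac gene programme.

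A gene was tested if a probe had a detection p-value (the rank of its signal among negative control probes) under 0.01 on at least 2 of the 4 arrays, and it was represented by its brightest such probe. By this rule 40 of the 64 genes were tested, and 36 of those 40 were detected on all 4 arrays. All tested values are log2 signals after background correction and quantile normalization, and differences are TMEM88 shRNA minus control. HDAC5 and SMYD5 were detected on both TMEM88 shRNA arrays and on neither control array. Both met the detection rule through their brighter group alone, so counts and medians over the tested genes include 2 genes whose entry favoured one direction.

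Promoters are shown for 3 members: KDM6A and PRDM11, the only 2 with an unadjusted p under 0.05 in the comparison of TMEM88 shRNA with control, and KDM3A, which had the largest positive difference. Each line gives the 250 bases before the RefSeq start (GRCh38.p14), 5′ to 3′ on the gene's own strand, which is the plus strand for all 3. Capitals mark the core of the hypoxia response element (ACGTG or GCGTG, searched on both strands) and the core TCF/LEF word TCAAAG, the factors through which Wnt signals reach DNA (both strands). The windows lie at chrX:44872938-44873187 for KDM6A, chr11:45146389-45146638 for PRDM11 and chr2:86441121-86441370 for KDM3A.
KDM6A: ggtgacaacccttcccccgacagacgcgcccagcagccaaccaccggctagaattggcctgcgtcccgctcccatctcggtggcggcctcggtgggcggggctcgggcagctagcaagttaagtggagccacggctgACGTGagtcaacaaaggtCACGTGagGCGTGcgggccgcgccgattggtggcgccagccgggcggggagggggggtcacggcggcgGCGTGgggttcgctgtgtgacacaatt
PRDM11: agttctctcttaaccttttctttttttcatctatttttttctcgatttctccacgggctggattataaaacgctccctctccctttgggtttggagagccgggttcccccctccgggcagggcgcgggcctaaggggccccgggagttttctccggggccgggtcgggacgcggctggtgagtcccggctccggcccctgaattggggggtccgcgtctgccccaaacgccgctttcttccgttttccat
KDM3A: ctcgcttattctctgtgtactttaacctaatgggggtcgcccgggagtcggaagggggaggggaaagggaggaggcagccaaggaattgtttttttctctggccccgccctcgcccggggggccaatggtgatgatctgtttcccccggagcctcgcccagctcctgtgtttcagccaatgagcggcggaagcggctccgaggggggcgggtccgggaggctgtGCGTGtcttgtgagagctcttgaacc
The KDM6A window held 4 separate marked stretches, 1 of them the palindrome CACGTG, in which matches on the 2 strands overlap. The KDM3A window held 1 match, 21 bases before the start, and the PRDM11 window held none. TCAAAG was found in none of the 3 windows. Promoters of this length were in the RefSeq table for 37 of the 40 tested members. The hypoxia core was in 24 of these 37 (64.9%), against 58% of 8438 tested genes and 43.1% of all 27305 promoters. TCAAAG was in 3 of the 37 (8.11%), against 7.29% and 11.4%. Median GC content was 65.6% in the tested members, close to the 64.8% of all tested genes, and the median number of CpG pairs per window was 23 against 21. KDM6A had 27 CpG pairs, PRDM11 20 and KDM3A 16.

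The targeted gene and the cell type markers set the frame for these values. TMEM88 signals were 2292.8 and 2987 in the controls, 360.7 with hairpin 691 and 1329.7 with hairpin 94, which left 9.62% and 52.9% of the control level after normalization. The log2 difference over both hairpins was -2.15 ± 0.71 (SE, n = 2 per group; limma adjusted p = 0.187), so the knockdown was uneven and did not pass as a group difference. Between 15300 and 16516 of 47322 probes were detected per array. Of 12 cardiac progenitor markers 10 were tested, while TBX5 and TBX20 were not detected on enough arrays. HAND2, MEF2C and PDGFRA fell past the threshold (limma adjusted p under 0.05). GATA4 at -1.17 ± 0.44, GATA5 at -0.83 ± 0.23 and GATA6 at -1.29 ± 0.32 were lower without passing. GATA4 and GATA6 were detected on only 1 of the TMEM88 shRNA arrays. Another 4 of the 10 had positive log2 differences that did not pass. These were KDR at 1.2 ± 0.69, NKX2-5 at 0.97 ± 0.42, HAND1 at 0.71 ± 0.50 and ISL1 at 0.03 ± 0.26. The list thus held 6 negative and 4 positive differences, with a median of -1.0. MEF2C was not detected with either TMEM88 hairpin, and GSC, CER1 and TTR on neither control array. Such genes met the detection rule through their brighter group alone, and the sums below leave them out. The summed log2 level of the other 9 cardiac markers was 75.9 and 78.1 in the controls and 70.5 and 72.4 with the TMEM88 hairpins. Sums of 5 primitive streak markers were 35.8 and 33.8 against 48.6 and 46.6, and those of 7 endoderm markers 52.5 and 50 against 61.8 and 60.9. All 6 tested streak markers, GSC among them, had positive differences, and 3 passed. All 9 tested endoderm markers, CER1 and TTR among them, were positive too, and 1 passed. Among all tested genes 50.1% had a positive difference. Pluripotency markers summed to 75.2 and 77.8 against 83.3 and 79.2, with none of 8 past the threshold. Of 4 tested endothelial and blood markers 2 had positive and 2 negative differences. Only HBE1 passed, as lower, and it was not detected with either TMEM88 hairpin. Of 3 tested neural ectoderm markers OTX2, detected on 1 control array, and ZIC2 passed as higher, while SOX3 was lower without passing. In these bulk samples, fewer cells of a type and less RNA per cell cannot be told apart. The part that the shift of these markers plays in the values below was not tested.

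In the main comparison, of both TMEM88 hairpins with both controls, no tested histone-modifying gene rose or fell past the threshold. None of the 40 passed limma's test at an adjusted p of 0.05, where 1.98% of the 10377 tested genes did. At an unadjusted p under 0.05 there were 2 members (5%), against 18.3% of all genes. The smallest adjusted p was 0.122. The median log2 difference of the tested members was -0.04, against 0 for all tested genes, and it was -0.09 without HDAC5 and SMYD5. Of the 40, 18 had a positive difference (45%, against 50.1% of all genes) and 22 a negative one. The median size of the difference, in either direction, was 0.25 for the members and 0.30 for all genes, and the median gap between the controls themselves was 0.34 in both. Control and TMEM88 shRNA arrays did not overlap for 18 of 40 members, or 45% against 50.2% of all genes. Of these, 8 were higher with TMEM88 shRNA (20%, against 25.2% of all genes) and 10 were lower (25%, against 24.9%). The difference exceeded both within-group gaps for 11 members (27.5%, against 36.8% of all genes).

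The test could not show small changes, so the intervals bear on what these arrays can say. For 28 of the 40 members (70%, against 56% of all genes) the 95% interval of the log2 difference lay within 1 of 0. For each gene taken singly, that leaves out a 2-fold difference of the normalized values in either direction. The other 12 had intervals that reach a 2-fold difference of these values. The values carry an offset of 16, which compresses differences of dim probes. For a dim member such as SIRT7 (95% interval -0.77 to 0.38), a 2-fold difference in signal is therefore not left out. PRDM11 alone had an estimate beyond 1 (2.5%, against 7.16% of all genes).

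**Figure D1:**
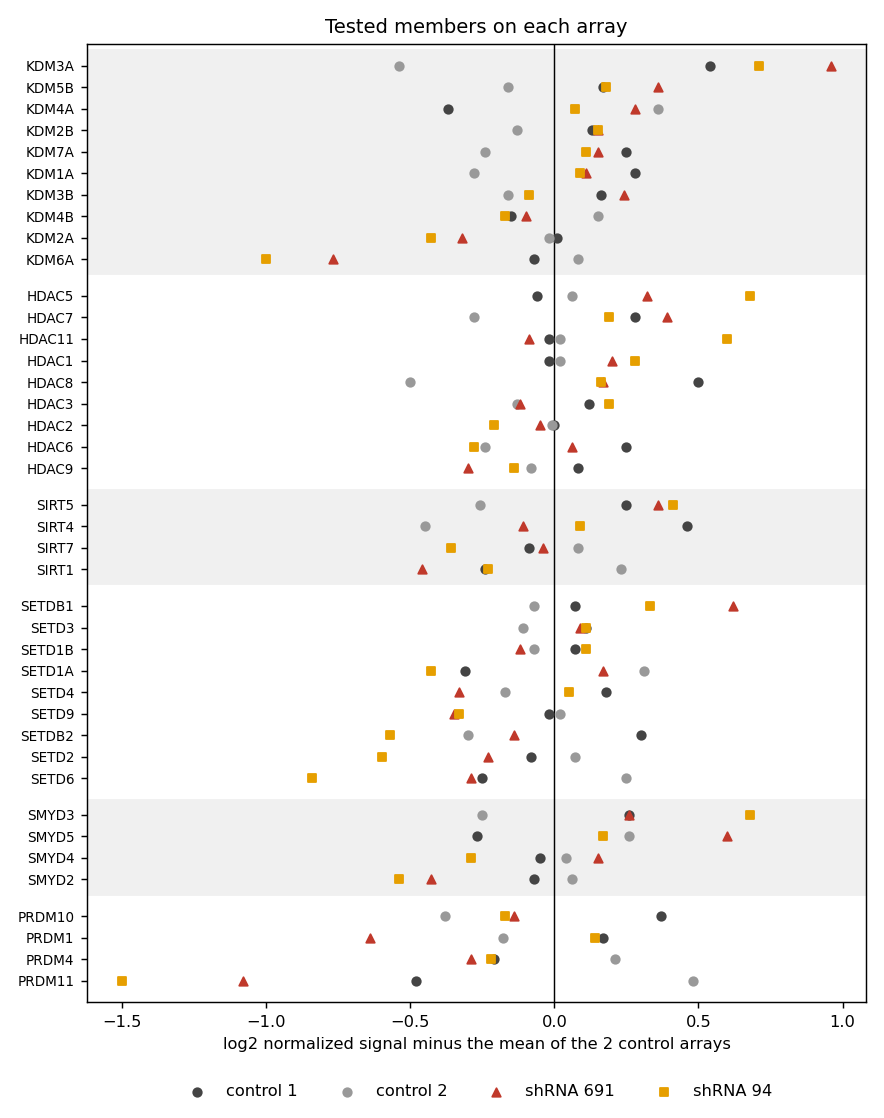
Each row is a tested gene, grouped by family, and each point is one array, plotted as its log2 normalized signal minus the mean of the 2 control arrays (x axis). Most triangles and squares (hairpins 691 and 94) fall among or close to the control circles, and KDM6A and PRDM11 stand to the left on both TMEM88 shRNA arrays.

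Of 17 genes with a demethylase symbol (KDM), the noncoding KDM7A-DT among them, 10 were tested, with 7 positive and 3 negative differences and a median of 0.11. KDM6A, which removes methyl groups from the Polycomb mark on histone H3 and is encoded on the X chromosome, had signals of 359.7 and 370.8 in the controls, 270.2 with hairpin 691 and 225.3 with hairpin 94. Both TMEM88 shRNA arrays were below both controls. After normalization they stood at 58.5% and 49.9% of the control level. The log2 difference was -0.89 ± 0.23 (SE, n = 2 per group; 95% interval -1.44 to -0.33), with an unadjusted p of 0.00692 and a limma adjusted p of 0.122, which missed the threshold. Against the controls, hairpin 691 alone gave -0.77 and hairpin 94 alone -1.0 (limma adjusted p = 0.655 and 0.496). The KDM6A difference of hairpin 691 minus hairpin 94 was 0.23 (limma adjusted p = 1).

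KDM3A, which removes methyl groups from lysine 9 of histone H3 and is a known target of hypoxia-inducible factors, lay at the other end of the family. Its signals were 218.1 and 157.9 in the controls, 266.2 with hairpin 691 and 220.6 with hairpin 94. The groups did not overlap, but control 1 came close to hairpin 94, and the controls lay 1.08 apart on the log2 scale. The KDM3A log2 difference was 0.83 ± 0.37 (95% interval -0.06 to 1.72; limma adjusted p = 0.301). KDM2A, a demethylase for lysine 36 of histone H3 that binds unmethylated CpG islands, had signals of 454.9 and 432.9 in the controls and 391.8 and 333.4 with hairpins 691 and 94. These groups did not overlap either, and the KDM2A log2 difference was -0.37 ± 0.22 (limma adjusted p = 0.433).

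KDM1A, the flavin-dependent demethylase of the CoREST complex, showed no separation of the groups. Its signals were 3326.5 and 2260.6 in the controls and 2922.6 and 2788.4 with the TMEM88 hairpins, so both hairpins lay between the controls. Its log2 difference was 0.10 ± 0.27 (95% interval -0.54 to 0.73). KDM5B, which acts on the methyl mark of active promoters, had signals of 1333.1 and 1061 in the controls and 1466.1 and 1221.9 with the TMEM88 hairpins, and a log2 difference of 0.27 ± 0.24. Its normalized values did not overlap between the groups, though by little. The remaining tested demethylases, KDM2B, KDM3B, KDM4A, KDM4B and KDM7A, had log2 differences between -0.13 and 0.18. KDM2B stood at 0.15 by its brightest probe and at -0.01 ± 0.27 by a second one.

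**Figure D2:**
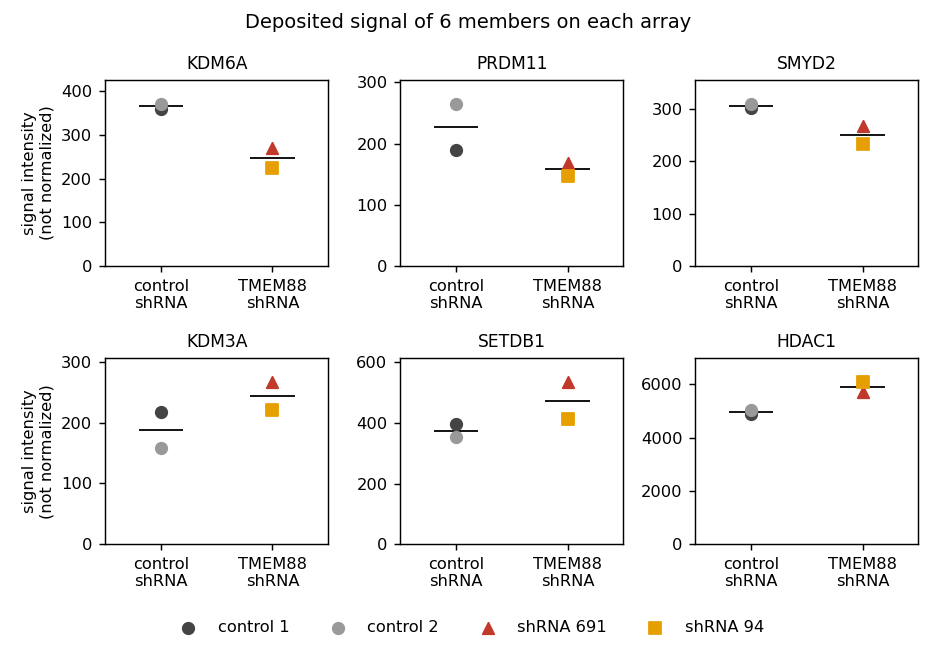
Deposited signal intensity (y axis, not normalized, starting at 0) on each of the 4 arrays for 6 genes, with a bar at the mean of each group of 2. For KDM6A both controls are at 359.7 and 370.8 and both TMEM88 shRNA arrays at 270.2 and 225.3, while for KDM3A control 1 at 218.1 nearly meets hairpin 94 at 220.6.

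Of 11 deacetylases 9 were tested, and 6 had a positive difference, with a median of 0.17. HDAC1 and HDAC2 are the paired catalytic subunits of the SIN3, NuRD and CoREST corepressor complexes. HDAC1 signals were 4875.6 and 5037.5 in the controls and 5695.1 and 6076.9 with hairpins 691 and 94, which placed both TMEM88 shRNA arrays above both controls. The HDAC1 log2 difference was 0.24 ± 0.22 (95% interval -0.29 to 0.77; limma adjusted p = 0.617). HDAC2 signals were 2961.3 and 2920.7 in the controls and 2828.1 and 2491.7 with the TMEM88 hairpins, and the HDAC2 log2 difference was -0.12 ± 0.23 (95% interval -0.66 to 0.41). For both genes the groups did not overlap and the interval left out a 2-fold difference. HDAC3, the deacetylase of the NCoR complex, had signals of 931 and 770.5 in the controls and 797.3 and 877.2 with the TMEM88 hairpins, so its groups overlapped, with a log2 difference of 0.03 ± 0.25 (95% interval -0.55 to 0.62) whose sign turned to -0.03 with median scaling. HDAC8, the last class I member, had controls 1.0 apart on the log2 scale and a log2 difference of 0.17 ± 0.35.

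Class IIa deacetylases shuttle between nucleus and cytoplasm and bind MEF2 factors in muscle and heart. HDAC5 signals were 136.2 and 140.9 in the controls, not detected on either, and 154.2 and 157.8 with hairpins 691 and 94, detected on both. A second HDAC5 probe was detected on no array. Since the controls give only a bound, HDAC5 was at least 1.06-fold higher with TMEM88 shRNA (limma adjusted p = 0.332). Such a bound compares the brighter group's mean with a floor, taken on each dim array as the dimmest signal detected there or the probe's own signal, whichever is higher. HDAC7 and HDAC9 were detected on every array by 1 of 3 and 1 of 4 probes, and by their other probes on none. Their log2 differences were 0.29 ± 0.27 and -0.23 ± 0.23. HDAC4 was detected on no array. The HDAC7 difference rested on the controls, at 0.57 without control 1 and 0.02 without control 2. HDAC6, a mainly cytoplasmic enzyme that acts on tubulin, had a log2 difference of -0.12 ± 0.27. HDAC11 had signals of 172.2 and 172.8 in the controls, 176.7 with hairpin 691 and 200.4 with hairpin 94. Only hairpin 94 stood apart there, and the HDAC11 log2 difference was 0.25 ± 0.29.

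Of 7 sirtuins 4 were tested. SIRT1, the best-studied nuclear member, had signals of 296.6 and 354 in the controls and 277.6 and 275.2 with the TMEM88 hairpins. Its normalized values overlapped, and the log2 difference was -0.34 ± 0.26 (limma adjusted p = 0.542). SIRT5, a mitochondrial enzyme that removes succinyl and malonyl groups, had signals of 327 and 253.1 in the controls and 353.5 and 324 with hairpins 691 and 94. The signal with hairpin 94 was just below control 1, and only the normalized values did not overlap between the groups. The SIRT5 log2 difference was 0.39 ± 0.26. It was 0.64 without control 1 and 0.14 without control 2. A second SIRT5 probe gave 0.17 ± 0.23. SIRT4, also mitochondrial, and the nucleolar SIRT7 had log2 differences of -0.01 ± 0.34 and -0.20 ± 0.24, and SIRT7 was detected on only 1 of the TMEM88 shRNA arrays.

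Of 10 SETD genes 9 were tested, with 7 negative and 2 positive differences and a median of -0.14. SETDB1, which places the repressive lysine 9 mark on histone H3 at retroelements, had signals of 395.8 and 354.2 in the controls, 534 with hairpin 691 and 412.4 with hairpin 94. Both TMEM88 shRNA arrays were above both controls, at 154% and 126% of the control level after normalization. The SETDB1 log2 difference was 0.48 ± 0.24 (95% interval -0.09 to 1.04; limma adjusted p = 0.344). SETD2, which trimethylates lysine 36 of histone H3 along transcribed genes, had signals of 720.9 and 758.5 in the controls, 656.6 with hairpin 691 and 485.2 with hairpin 94. These groups did not overlap either, and the SETD2 log2 difference was -0.41 ± 0.25 (95% interval -1.0 to 0.18; limma adjusted p = 0.436).

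SETD6, which methylates the NF-kappa-B subunit RELA, had signals of 225.1 and 267.4 in the controls, 232.5 with hairpin 691 and 179.4 with hairpin 94. After normalization its arrays did not overlap, but hairpin 691 stood at 81.6% of the control level, next to control 1 at 84%. The SETD6 log2 difference was -0.57 ± 0.30 (limma adjusted p = 0.376). SETD9 had signals of 266.7 and 262.4 in the controls and 243.1 and 223.5 with the TMEM88 hairpins, and a log2 difference of -0.34 ± 0.22 with each within-group gap at most 0.04. SETDB2 stood at -0.35 ± 0.30 with overlapping arrays, at -0.05 without control 1 and at -0.65 without control 2. SETD1A and SETD1B, catalytic subunits of the complexes that methylate lysine 4 of histone H3 at promoters, stood at -0.13 ± 0.32 and -0.01 ± 0.23. SETD3, which methylates a histidine of actin, stood at 0.10 ± 0.23, and a second SETD3 probe at -0.03 ± 0.26. SETD7 was detected on no array.

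All 4 SMYD genes were tested. SMYD2, which methylates lysines of p53 and of histone H3, had signals of 301.2 and 308.5 in the controls and 267 and 232.2 with hairpins 691 and 94. The groups did not overlap, and the SMYD2 log2 difference was -0.48 ± 0.23 (95% interval -1.02 to 0.06; limma adjusted p = 0.321). SMYD3 had signals of 491.6 and 364.5 in the controls, 498.6 with hairpin 691 and 568 with hairpin 94. Hairpin 691 lay almost level with control 1, and the SMYD3 log2 difference was 0.46 ± 0.28 (limma adjusted p = 0.443). SMYD5 signals were 134.2 and 150.4 in the controls, not detected on either, and 169.9 and 147.1 with the TMEM88 hairpins. The SMYD5 bound, which compares group means on these arrays, was at least 1.08-fold higher with TMEM88 shRNA. The 95% interval of the fitted SMYD5 log2 difference, -0.3 to 1.08, includes no difference. Its normalized values overlapped, with hairpin 94 at 5.37 below control 2 at 5.46. SMYD4 stood at -0.07 ± 0.25.

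Of the 15 genes with a PRDM symbol, the noncoding PRDM10-DT among them, only 4 were tested. All 4 had negative differences, with a median of -0.25. PRDM11 had signals of 190.1 and 264.3 in the controls, 168.6 with hairpin 691 and 146.7 with hairpin 94, where it was not detected. Both TMEM88 shRNA arrays were below both controls. After normalization hairpin 691 stood at 47.3% of the control level and hairpin 94 at no more than 35.7%, the level of the dimmest signal detected on that array, against 71.5% and 140% in the controls themselves. The fitted PRDM11 log2 difference, which takes the undetected value as measured, was -1.29 ± 0.36 (95% interval -2.15 to -0.43), with an unadjusted p of 0.00944 and a limma adjusted p of 0.137. Its size is uncertain, since without background correction the PRDM11 difference was -0.50. PRDM1, known as BLIMP1, a repressor in B cell and germ cell development, had signals of 602.3 and 478.1 in the controls, 395.6 with hairpin 691 and 537 with hairpin 94. Only hairpin 691 lay below both controls, and the PRDM1 log2 difference was -0.25 ± 0.32 (95% interval -1.01 to 0.51). It rests on 1 of 4 PRDM1 probes, the others being detected on no array. PRDM4 and PRDM10 stood at -0.25 ± 0.25 and -0.15 ± 0.30, and a second PRDM10 probe gave 0.25 ± 0.29, of the opposite sign.

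**Figure D3:**
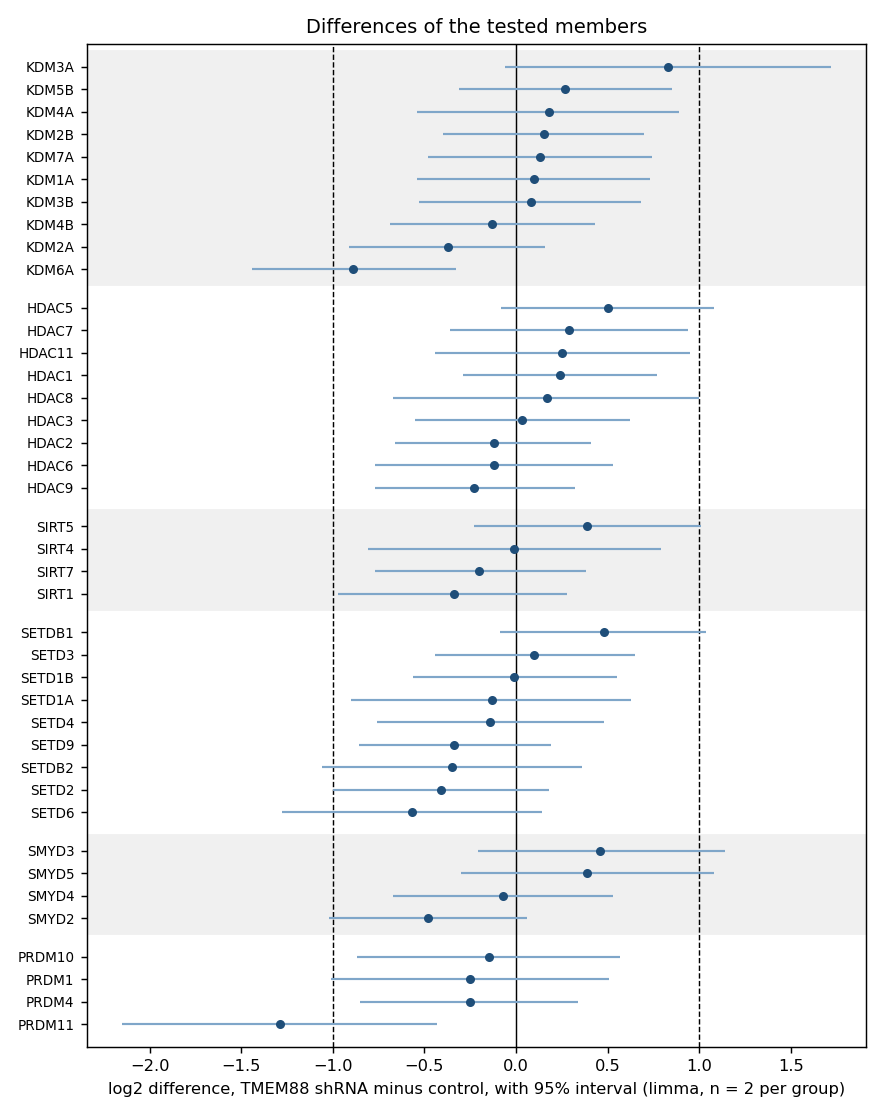
The log2 difference of TMEM88 shRNA minus control (x axis) for each tested gene, with its 95% interval from limma (n = 2 per group). Dashed lines mark a 2-fold difference of the normalized values either way. The intervals of KDM6A (-1.44 to -0.33) and PRDM11 (-2.15 to -0.43) lie below 0, each taken singly, and 28 of 40 intervals stay within the dashed lines. HDAC5 and SMYD5, undetected on the controls, and PRDM11, undetected with hairpin 94, are drawn at their fitted values.

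The other 24 members were not tested. KDM5D is Y-linked and no value is given for it. SIRT2, SIRT6 and PRDM2 had a probe detected on 1 array, and 20 members had none. Those 20 were the deacetylases HDAC4 and HDAC10, the sirtuin SIRT3, SETD7, the demethylases KDM1B, KDM4C, KDM4D, KDM5C and KDM8, and 9 PRDM genes, together with KDM7A-DT and PRDM10-DT. The last named are noncoding transcripts that start beside KDM7A and PRDM10 and are no enzymes, but their symbols meet the rule. Among the PRDM genes without detection were PRDM14, a pluripotency and germ cell regulator with 2 probes, and PRDM16, a regulator of brown fat and heart muscle with 5 probes. An undetected probe gives only an upper limit on its signal and does not show that the gene is silent. Just outside the limit, KDM5C had signals of 148.8 and 148.6 in the controls and 140.4 and 126.2 with the TMEM88 hairpins, with a lowest detection p of 0.01039. Just inside it, KDM4A had a detection p of 0.00909 on control 1 and was detected on all 4 arrays.

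**Figure D4:**
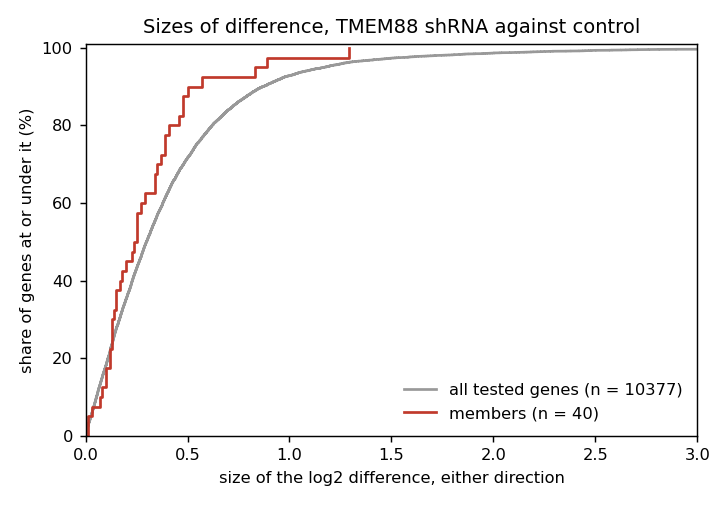
Cumulative share of genes (y axis, in percent) whose log2 difference, in either direction, is at or under the size on the x axis, for the 40 tested members and all 10377 tested genes. The median size is 0.25 for the members and 0.30 for all genes.

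Taken one hairpin at a time, no member passed either. With hairpin 691 none of 40 did by limma, against 0.867% of all tested genes, and none had an unadjusted p under 0.05 (8.95% of all genes). With hairpin 94 none did, against 0.482%, and 2 had an unadjusted p under 0.05 (8.61% of all genes). These were KDM6A, as above, and PRDM11, which was not detected with hairpin 94. PRDM11 was there at least 2.8-fold below the mean of the controls, which lay 0.97 apart on the log2 scale. That limit holds after background correction, without which the PRDM11 log2 difference over both hairpins was -0.50. The lone array of a hairpin is assumed in this fit to vary like the controls, and both comparisons share the control arrays. The difference between the hairpins themselves passed for no member and for no gene at all (0%), with 0 members and 0.944% of all genes at an unadjusted p under 0.05. Member differences of hairpin 691 minus hairpin 94 ranged from -0.78 for PRDM1 to 0.60 for SETD1A, with a median size of 0.23 against 0.21 for all genes.

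Other chromatin genes were read from 8 lists. Without the members themselves these lists held 107 tested genes of 129 on the array. None of the 107 passed in limma, beside the 1.98% of all genes, while 17 had an unadjusted p under 0.05 (15.9%, against 18.3% of all genes). Their median log2 difference was -0.09. EZH2, the methyltransferase that places the Polycomb mark KDM6A removes, stood at -0.87 ± 0.26 (limma adjusted p = 0.154), and CBX7, a reader of that mark, at 0.89 ± 0.32, the largest differences among 24 tested Polycomb genes. Of 16 COMPASS genes, which include SETD1A and SETD1B, none differed by more than 0.42. That size was reached by KMT2A (-0.42 ± 0.28), detected on 1 of the TMEM88 shRNA arrays, and HCFC1 (-0.42 ± 0.24). Of 20 genes of deacetylase corepressor complexes, the methyl-CpG binding protein gene MBD2 stood at 0.96 ± 0.24 (limma adjusted p = 0.105) and MTA3, of the NuRD complex, at 0.88 ± 0.29.

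Of 15 tested acetyltransferase genes, which encode the opponents of the deacetylases and their partners, KAT2B stood at -1.19 ± 0.35 and BRPF3 at -0.98 ± 0.34 (limma adjusted p = 0.146 and 0.207), and the list median was -0.26. Of 9 arginine methyltransferase genes WDR77, the partner of PRMT5, stood at -0.93 ± 0.22 (limma adjusted p = 0.1) and PRMT6 at -0.69 ± 0.24. Of 9 other JmjC genes JMJD1C and RIOX1 stood at -0.86 ± 0.27 and -0.68 ± 0.22, and 8 of the 9 had a negative difference. Of 8 other lysine methyltransferase genes NSD3, detected on 1 of the TMEM88 shRNA arrays, stood at -0.64 ± 0.30 and KMT5A at -0.29 ± 0.24. Of 8 genes of DNA methylation and its removal TDG, a DNA glycosylase, stood at -0.85 ± 0.25 and TET1 at 0.44 ± 0.35. For comparison, 10 of the 40 tested markers of the 6 cell type lists passed on the same arrays, with EOMES at 3.33 ± 0.46 and HAND2, detected on 1 of the TMEM88 shRNA arrays, at -3.74 ± 0.25. That contrast between marker genes and chromatin genes was not tested.

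**Figure D5:**
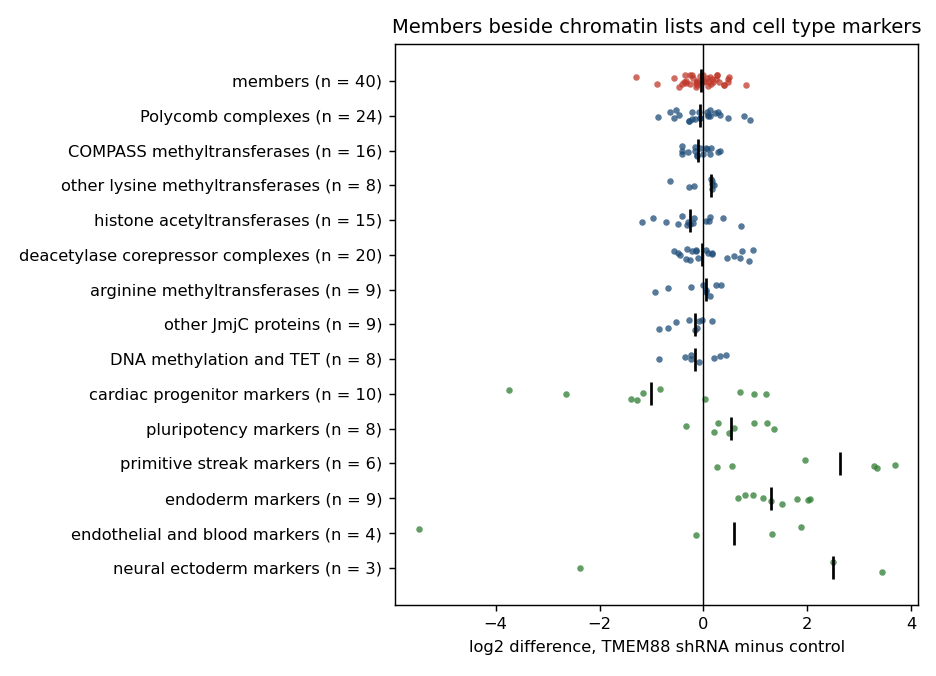
Each point is a tested gene, placed by its log2 difference of TMEM88 shRNA minus control (x axis), in the described family, 8 lists of other chromatin genes and 6 lists of cell type markers, with a black bar at each list's median. Chromatin lists lie between -1.29 and 0.96, and marker lists reach from -5.48 to 3.68. The lowest marker, HBE1, was not detected on either TMEM88 shRNA array, so its point is a fitted value and the data give only that it was at least 24.3-fold lower.

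The controls decide how the largest differences are read. Without control 1, limma called 3 members, KDM3A higher (1.37 ± 0.25, adjusted p = 0.0122) and KDM6A (-0.96 ± 0.25, adjusted p = 0.0408) and PRDM11 (-1.77 ± 0.27, adjusted p = 0.00586) lower. That fit takes its spread from the pair of TMEM88 shRNA arrays alone and called 14% of all genes, so 3 of 40 (7.5%) is below its own background. Without control 2 it called no member, and 5.28% of all genes, with KDM3A at 0.29 (adjusted p = 0.573), KDM6A at -0.82 (adjusted p = 0.107) and PRDM11 at -0.80 (adjusted p = 0.136). Of the 24 members named by rule, 14 had a log2 difference that moved by over 1.5 times or turned sign when one of the controls was left out, and 18 when any single array was. Without control 1 and without control 2 the log2 difference of SIRT1 was -0.57 and -0.11, that of SETD6 -0.82 and -0.32, that of SMYD3 0.71 and 0.21, that of KDM5B 0.43 and 0.10, and that of PRDM4 -0.46 and -0.04. None of these 5 passed in either fit. Without background correction, which leaves dim signals compressed, the log2 differences were -0.53 for KDM6A, 0.35 for KDM3A and -0.50 for PRDM11, and with the deposited log2 matrix -0.57, 0.39 and -0.57.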

How the data were processed

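The deposited scanner table holds, per the file headers, a signal intensity and a detection p-value for each of 47322 Illumina probes on 4 arrays, to which cRNA carrying biotin was hybridised, per the labels' protocols. The intensities are on a linear scale, and their array medians differ (130.9 to 135.7), so neither medians nor quantiles had been equalized between arrays. The authors also deposited log2 values of the same arrays, with a median of 7.02 on each, which lay within 0.158 of quantile-normalized log2 signal. How they were normalized is not stated. Per the submitters' processing notes, lumi and limma 3.12.3 were used, with no role given.

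Here the signals went through neqc (limma 3.58.1, R 4.3.3, offset 16), which corrects background, inferring negative controls from the detection p-values, and equalizes quantiles, and whose offset compresses differences of dim probes. Of 47322 probes 30113 had 1 gene symbol, 8 several and 17201 none, and the symbols of 30092 probes were matched to RefSeq (GRCh38.p14) names. The test was limma's lmFit with eBayes, 2-sided, adjusted by Benjamini-Hochberg over 10377 genes and a threshold of 0.05, on 2 residual and 4.84 prior degrees of freedom. It was checked on simulated data with independent noise drawn from the fitted variances, which held no difference between hairpins. A fit with 3 groups served for each hairpin alone. With 4 arrays, their number limits precision.

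Members and lists were chosen with earlier results of these data known. Named were all called members, the 10 largest differences in each direction, 13 fixed genes, members with several tested probes, and called genes or otherwise the 2 largest differences of each list. Further members were named by family after their values were seen. No pairing or batch is given in the labels. Alternatives covered background correction, normalization, the deposited matrix, the detection filter, probes per gene, the variance model and each array left out. Figures were drawn with matplotlib 3.10.9.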

Additional observations from a re-analysis of the deposited data

Results flagged for a closer look

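PRDM2, a zinc finger gene of the PRDM family left out of the test, had a probe that was detected with hairpin 691 at a signal of 158.3 and on no control array, where it read 132.7 and 137.7. With hairpin 94 it read 143.9 and did not reach detection. It was singled out because a signal appeared with a TMEM88 hairpin and in neither control. Its detection p there was 0.00519, and the other probes of the 5 for PRDM2 were detected on no array. Lone detections also fell on controls, for SIRT2 on control 1 (detection p 0.00649) and SIRT6 on control 2 (detection p 0.00909).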

How the results depend on the processing

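No member was called under any of 7 alternatives of processing, for both hairpins together, for either hairpin or for the difference between hairpins. Leaving out single arrays gave 0 to 3 called members, and only the fit without control 1 gave any. The median difference of -0.041 stayed between -0.108 and -0.009 under the processing alternatives and ranged from -0.099 to 0.096 when single arrays were left out (0.096 without control 1, 0.059 without hairpin 691). Of 261 repeated values of 24 named members 6 turned sign: HDAC3 with median scaling (-0.03), without control 2 (-0.09) and without hairpin 94 (-0.12), KDM1A without control 2 (-0.19), HDAC11 without hairpin 94 (-0.09) and PRDM1 without hairpin 691 (0.14). When single arrays were left out these ranged from -0.12 to 0.19 for HDAC3, -0.19 to 0.38 for KDM1A, -0.09 to 0.60 for HDAC11 and -0.64 to 0.14 for PRDM1. The cause was not tested. Over all settings KDM6A ranged from -1.0 to -0.53, KDM3A from 0.29 to 1.37 and PRDM11 from -1.77 to -0.50. Counts over all genes also depended on the setting: 205 of 10377 were called in the main fit and 19 of 20039 with no detection filter, where 63 members were tested. With 2 arrays per group, 1 per hairpin and many members near background, changes under 2-fold are largely out of reach. Larger ones can be missed as well: 743 of 10377 genes differed by over 1 on the log2 scale, while 205 passed.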
